A study of Mus musculus with 6 samples.

Results

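The 10 genes described here were 2 metallothioneins (*Mt1* and *Mt2*), 4 zinc exporters of the ZnT family (*Slc30a1*, *Slc30a4*, *Slc30a5* and *Slc30a7*) and 4 zinc importers of the ZIP family (*Slc39a1*, *Slc39a6*, *Slc39a10* and *Slc39a14*). They were taken by gene name from a table of 57180 genes. All 10 were found once, and all 10 were among the 13428 genes with enough counts to be tested. The mRNA came from osteoclast precursors (OCPs), that is, bone marrow-derived macrophages that had been given 40 ng/mL M-CSF for 24 h and then 40 ng/mL RANKL for 48 h. RANKL is the cytokine that turns macrophages into osteoclasts, the cells that resorb bone. There were 3 wild-type (WT) cultures from C57BL/6 mice and 3 knockout (KO) cultures from mice lacking lincRNA-EPS, a long noncoding RNA known for restraining inflammatory genes in macrophages. All 6 cultures had received both cytokines, and no untreated culture was analysed here. The 3 cultures of each genotype were described as biologically independent, and the sex and age of their donor mice were not given with them. The donor mice were lincRNA-EPS-/-, and how the allele was made was not given in the sources used here.

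Zinc is a cofactor of many enzymes and transcription factors, and free zinc in the cytosol is held very low. Metallothioneins are small cysteine-rich proteins that bind zinc and copper. ZnT proteins move zinc out of the cytosol, either across the plasma membrane or into vesicles, the Golgi and other organelles. ZIP proteins move it the other way, into the cytosol. When zinc rises, the zinc-sensing transcription factor MTF1 binds short metal response elements in DNA and turns on the metallothioneins and *Slc30a1*. In macrophages, metallothioneins are also known to be induced by inflammatory signals and glucocorticoids.

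The metal response element gives these genes a shared sequence to look for, so promoter windows are shown for the members whose values are described most closely below. The windows came from a set drawn from RefSeq (build GRCm38.p6), in which 8 of the 10 members were matched by gene name. *Slc39a6* and *Slc39a14* were not matched in this set, which does not mean that RefSeq lacks them. Each window was searched over the 250 bases before the RefSeq start for the core letters TGCACNC or TGCGCNC on either strand, where N is any base. The core was present in 5 of the 8 members and absent from the windows of *Slc30a7*, *Slc39a1* and *Slc39a10*. Of 18 matched genes in the list of other zinc genes described below, 8 held it in at least 1 window. Among all 32851 windows of this length in the table, 21.4% held it at least once, 5.17% at least 2 times and 1.26% at least 3 times. *Mt2* held 3 copies, *Slc30a4* held 2, and *Mt1*, *Slc30a1* and *Slc30a5* held 1 each. The sequences below read 5′ to 3′ on the gene's strand, with the core in capitals as it falls on either strand, and stop before the first annotated base of the gene. They are *Mt1* at chr8:94178839-94179081 (plus strand), *Mt2* at chr8:94172368-94172617 (plus strand), *Slc30a1* at chr1:191906531-191906766 (plus strand) and *Slc30a4* at chr2:122702664-122702913 (minus strand).
*Mt1*: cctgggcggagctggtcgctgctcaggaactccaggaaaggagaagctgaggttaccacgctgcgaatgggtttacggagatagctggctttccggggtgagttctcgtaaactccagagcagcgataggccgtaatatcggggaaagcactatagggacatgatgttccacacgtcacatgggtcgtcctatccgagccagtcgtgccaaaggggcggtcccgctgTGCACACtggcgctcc
*Mt2*: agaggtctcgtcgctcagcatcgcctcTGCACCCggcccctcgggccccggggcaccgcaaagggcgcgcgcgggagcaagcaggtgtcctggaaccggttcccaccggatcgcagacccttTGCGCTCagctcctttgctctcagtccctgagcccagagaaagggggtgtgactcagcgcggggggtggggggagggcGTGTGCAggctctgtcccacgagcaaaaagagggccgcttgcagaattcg
*Slc30a1*: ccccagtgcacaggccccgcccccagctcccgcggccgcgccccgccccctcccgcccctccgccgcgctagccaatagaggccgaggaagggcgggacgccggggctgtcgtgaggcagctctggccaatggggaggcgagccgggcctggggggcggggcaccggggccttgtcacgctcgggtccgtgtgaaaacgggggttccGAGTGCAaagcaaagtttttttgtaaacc
*Slc30a4*: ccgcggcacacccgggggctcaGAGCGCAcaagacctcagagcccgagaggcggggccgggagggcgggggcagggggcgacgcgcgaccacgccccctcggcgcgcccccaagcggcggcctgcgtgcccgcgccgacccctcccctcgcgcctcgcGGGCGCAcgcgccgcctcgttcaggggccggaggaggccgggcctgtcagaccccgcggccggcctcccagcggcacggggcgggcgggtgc

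The single copy in the *Mt1* window began 23 bases before the RefSeq start. Another 2 copies lay 2 and 20 bases past that start, outside the part shown. GENCODE lists 3 starts for *Mt1*, and 2 of them lie 122 and 152 bases downstream of the RefSeq start, so that for those transcripts these 3 copies are upstream. The window ended 50 bases past the RefSeq start. The stretch from there to those 2 starts was not searched, so 3 is not a full count for them. The 2 metallothionein members sit next to each other on chromosome 8, both on the plus strand and 5513 bases apart in GRCm38. A match to these letters is a description of the window and was not tested as a binding site.

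The libraries held 17757351 to 19998611 estimated counts each, so that 3 counts, taken as the limit of detection, corresponded to 0.150 to 0.173 CPM (counts scaled to a common library size, with TMM factors). *Ttc39aos1*, the annotated gene of lincRNA-EPS, had 20, 37 and 41 counts in the WT libraries and 0 in each KO library, at least 10.8-fold lower in KO when the KO libraries are set at 3 counts each. The genotype labels therefore matched the targeted gene. Its log2 fold change was -8.03, with an edgeR adjusted p of 0.12, and of 0.025 with a GC correction (described below). A gene with 0 counts in every KO library was thus not called at an adjusted p under 0.01. The 6 macrophage markers summed to 16452 to 17591 CPM in WT and 14833 to 17636 CPM in KO. The 8 osteoclast markers summed to 4611 to 5022 CPM in WT and 6114 to 6599 CPM in KO, and the 8 neutrophil markers to 1248 to 1406 CPM in WT and 1664 to 2003 CPM in KO. The B cell, T cell, stromal and erythroid lists, of 3, 4, 5 and 4 genes, each summed to at most 20.3 CPM in any library. Fewer cells of a type and less RNA per cell cannot be told apart in such bulk libraries. No listed marker was at 0 in all 6 libraries, though 2 T cell and 3 erythroid markers had at most 3 counts in any of them. In edgeR no marker of the macrophage, osteoclast or neutrophil lists passed the limits of an adjusted p under 0.01 and a fold over 1.3. With a GC correction (described below) 1 did, *Dcstamp*, a fusion gene of osteoclasts (log2 fold change 0.76, edgeR adjusted p = 0.0045), and DESeq2 passed 3 osteoclast and 2 neutrophil markers without that correction and 5 and 4 with it. Over all tested genes the shares that passed in these 3 settings were 0.0298%, 0.961% and 2.54%. All 6 macrophage estimates were below 0 (median log2 fold change -0.25), with every KO library below WT for 4 of them, *Csf1r*, *Adgre1*, *Itgam* and *Cd14*, while the macrophage sums, mostly *Lyz2*, overlapped. Of 8 osteoclast markers, 7 estimates were above 0 and 5 markers had every KO library above WT. Of 7 tested neutrophil markers, 4 had every KO library above WT and 2, *Elane* and *Mpo*, had every KO library below it. Over all tested genes, 16.9% had every KO library above WT and 18.8% every KO library below. The osteoclast and neutrophil sums did not overlap between genotypes, nor did the low B cell sums (3.01 to 3.56 CPM in WT and 3.82 to 4.26 CPM in KO). Nor did *Mt2*, *Slc30a4* and *Slc30a5* below, and the part of those cell types in the member values was not tested.

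Levels were first compared between members after division by transcript length, as CPM per kilobase over all 6 libraries. *Mt1* stood highest, with a mean of 205 CPM per kilobase and a range of 139 to 256. *Slc39a1*, which encodes ZIP1, an importer at the plasma membrane, came next at 74.9. *Mt2* (32.4, range 21.1 to 40.8) and *Slc30a5* (30.6, range 29.3 to 33.7) overlapped in range and could not be ordered. *Slc39a6* followed at 23.0. *Slc39a14* (9.41), *Slc30a1* (9.06) and *Slc39a10* (7.89) overlapped with their neighbours in the order. *Slc30a7* (5.64) and *Slc30a4* (2.76) were the lowest and did not overlap with each other. Every other pair of neighbours was separate in range. These levels assume that each gene was read from the single transcript model used for its length.

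**Figure D1:**
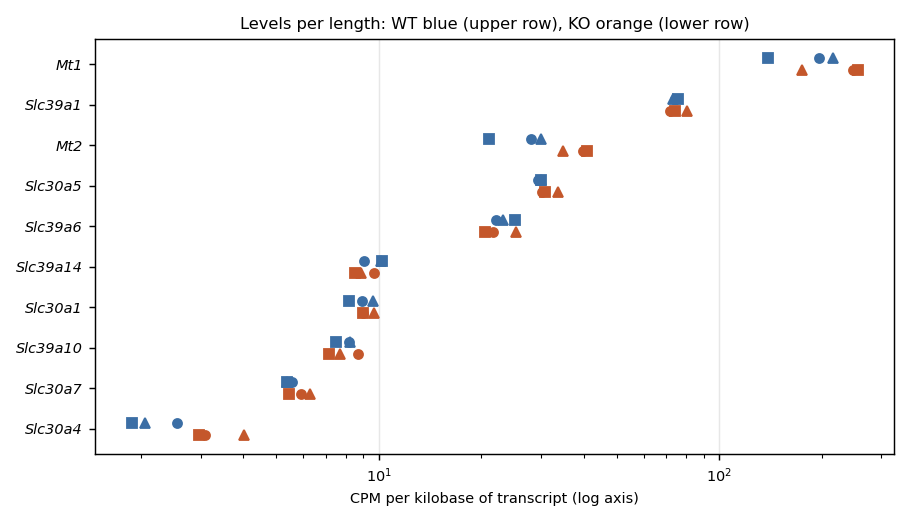
Level of each member in each library, in CPM per kilobase of transcript on a log axis, with WT libraries in blue (upper row) and KO libraries in orange (lower row), and circles, squares and triangles for replicates 1, 2 and 3. *Mt1* spans 139 to 256 and *Slc30a4* spans 1.88 to 4.02, and *Mt2* and *Slc30a4* show blue and orange points apart. The groups of *Slc30a5* do not overlap either but lie close together.

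The question put to these libraries was how lincRNA-EPS loss alters gene expression in OCPs after RANKL priming. No member passed the limits of an adjusted p under 0.01 and a fold change over 1.3 in edgeR's quasi-likelihood test. Over all tested genes, 0.00745% passed, and *Ttc39aos1*, at 0 counts in every KO library, did not. At an unadjusted p under 0.05, 2 of the 10 members were reached, *Mt2* and *Slc30a4*, both with the higher mean in KO. The background was 26.2% of all tested genes (13% in the direction of higher in KO), and 2 of 10 is not above it. No member reached that level with the lower mean in KO, against 13.2% of all tested genes. The estimated log2 fold change was above 0 for 7 members and below 0 for 3, where 51% of all tested genes were above 0, with a median of 0.07 over the members and 0.01 over all tested genes. Without KO replicate 3 the median over the members was 0.02, with 6 above 0 and 4 below. The KO and WT libraries did not overlap for 3 members, *Mt2*, *Slc30a4* and *Slc30a5*, each with KO above WT, against 16.9% of all tested genes. No member had all KO libraries below all WT libraries, against 18.8%.

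*Mt1* was the most abundant member per length. Its level was 108, 76.6 and 119 CPM in the 3 WT libraries and 136, 141 and 96.3 CPM in the 3 KO libraries. The groups overlapped, because KO replicate 3 lay below WT replicates 1 and 3. The means were 101 ± 21.8 CPM in WT and 124 ± 24.4 CPM in KO (SD, n = 3 each). KO against WT, the log2 fold change was 0.30 (95% interval -0.13 to 0.73; edgeR adjusted p = 0.323). The estimate was 0.13 without WT replicate 2 and 0.45 without KO replicate 3 on the log2 scale.

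*Mt2* was lower in level than *Mt1* and more separated by genotype. It measured 14.3, 10.8 and 15.3 CPM in WT and 20.4, 20.9 and 17.7 CPM in KO. All 3 KO libraries lay above all 3 WT libraries, with KO replicate 3 the closest to WT. The means were 13.5 ± 2.39 CPM in WT and 19.7 ± 1.69 CPM in KO (SD, n = 3 each), 1.46-fold higher in KO by the fit. On the log2 scale the difference was 0.54 with a 95% interval of 0.19 to 0.89. The unadjusted p was 0.00657 and the adjusted p 0.147 in edgeR, so the call was not made. Gm45774, an antisense gene, shares 432 exonic bases with *Mt2* and had 6 to 8.01 counts per library, against 197 to 391 for *Mt2*. *Mt1* and *Mt2* are related in sequence, and their estimated counts were whole numbers in all 6 libraries for *Mt1* and in 4 of 6 for *Mt2*. The library kit marks strand, but the strand setting used for counting was not given in the sources used here.

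The ratio of *Mt1* to *Mt2* within a library removes any factor common to both genes. It was 7.53, 7.10 and 7.74 in WT and 6.68, 6.74 and 5.44 in KO. All 3 KO values were below all 3 WT values, with a difference of KO minus WT of -1.17 between means of 7.46 ± 0.324 and 6.29 ± 0.735 (SD, n = 3 each). The two-sided exact permutation p was 0.1, the smallest that 3 against 3 libraries can give. From GC-corrected levels (described below; this version was chosen after seeing the data) the ratio was 7.35, 6.63 and 7.52 in WT and 6.60, 6.75 and 5.99 in KO, so that the groups overlapped, and the difference was -0.719 (two-sided exact permutation p = 0.2). Across the 6 libraries the log2 levels of *Mt1* and *Mt2* had a Pearson r of 0.86, given as a description of libraries that share genotype and base composition bias.

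*Slc30a1* encodes ZnT1, the zinc exporter of the plasma membrane, and carries metal response elements known to answer MTF1. It measured 46.7, 42.8 and 50.5 CPM in WT and 47.1, 47.2 and 50.7 CPM in KO. The KO values lay within or next to the WT range. Its log2 fold change was 0.05 (95% interval -0.18 to 0.28; edgeR adjusted p = 0.767). An antisense gene, 1700034H15Rik, shares 468 exonic bases with it and had 3.03 to 5.95 counts per library.

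*Slc30a4* encodes ZnT4, which is found on endosomal, lysosomal and secretory vesicle membranes. It measured 13.9, 10.2 and 11.2 CPM in WT and 16.8, 16.2 and 21.9 CPM in KO. Every KO library was above every WT library, and KO replicate 3 was the highest. The means were 11.8 ± 1.89 CPM in WT and 18.3 ± 3.17 CPM in KO (SD, n = 3 each). The log2 fold change was 0.64, with a 95% interval of 0.25 to 1.02. It was the largest among the members without the GC correction described below, but not with it. The unadjusted p was 0.0045 and the adjusted p 0.147 in edgeR. Its overlapping neighbour 4930417H01Rik (130 shared exonic bases) had at most 3 counts in any library.

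*Slc30a5* and *Slc30a7* encode ZnT5 and ZnT7, which load zinc into the early secretory pathway and supply zinc enzymes such as alkaline phosphatase. *Slc30a5* measured 93.1, 95.2 and 95.3 CPM in WT and 95.9, 97.6 and 107 CPM in KO. The groups did not overlap, but the nearest values, WT replicate 3 and KO replicate 1, were less than 1 CPM apart. The log2 fold change was 0.08 (95% interval -0.12 to 0.28; edgeR adjusted p = 0.553). *Slc30a7* measured 49.9, 48.5 and 48.3 CPM in WT and 53.1, 49.2 and 56.4 CPM in KO. Its groups overlapped at KO replicate 2, with a log2 fold change of 0.11 (95% interval -0.10 to 0.33; edgeR adjusted p = 0.455). Summed over the 4 ZnT members, the level was 197 to 205 CPM in WT and 210 to 236 CPM in KO.

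The 4 ZIP members had overlapping groups, and estimates near 0 without the GC correction described below. *Slc39a1*, the most abundant ZIP member per length, measured 175, 179 and 173 CPM in WT and 170, 175 and 190 CPM in KO. Its log2 fold change was 0.02 with a 95% interval of -0.17 to 0.22. *Slc39a6* and *Slc39a10* encode ZIP6 and ZIP10, close relatives that can pair in the plasma membrane. *Slc39a6* measured 85.9, 97.8 and 90.1 CPM in WT and 83.8, 79.5 and 98.0 CPM in KO, and KO replicate 3 was the highest of all 6 libraries while the other two KO libraries were the lowest. Its log2 fold change was -0.07 (95% interval -0.31 to 0.18). *Slc39a10* measured 44.9, 41.2 and 45.2 CPM in WT and 47.8, 39.3 and 42.2 CPM in KO, with the KO libraries holding both the highest and the lowest value, and a log2 fold change of -0.02 (95% interval -0.27 to 0.22).

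*Slc39a14* encodes ZIP14, which carries zinc, manganese and non-transferrin-bound iron and is induced by inflammatory signals in liver. It measured 44.5, 50.5 and 49.9 CPM in WT and 47.5, 41.9 and 43.8 CPM in KO. The groups overlapped, since KO replicate 1 lay above WT replicate 1. The log2 fold change was -0.12 (95% interval -0.35 to 0.11; edgeR adjusted p = 0.457). Adjusted p over the 4 ZIP members ran from 0.457 to 0.903. Summed over these members the level was 350 to 368 CPM in WT and 336 to 374 CPM in KO.

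**Figure D2:**
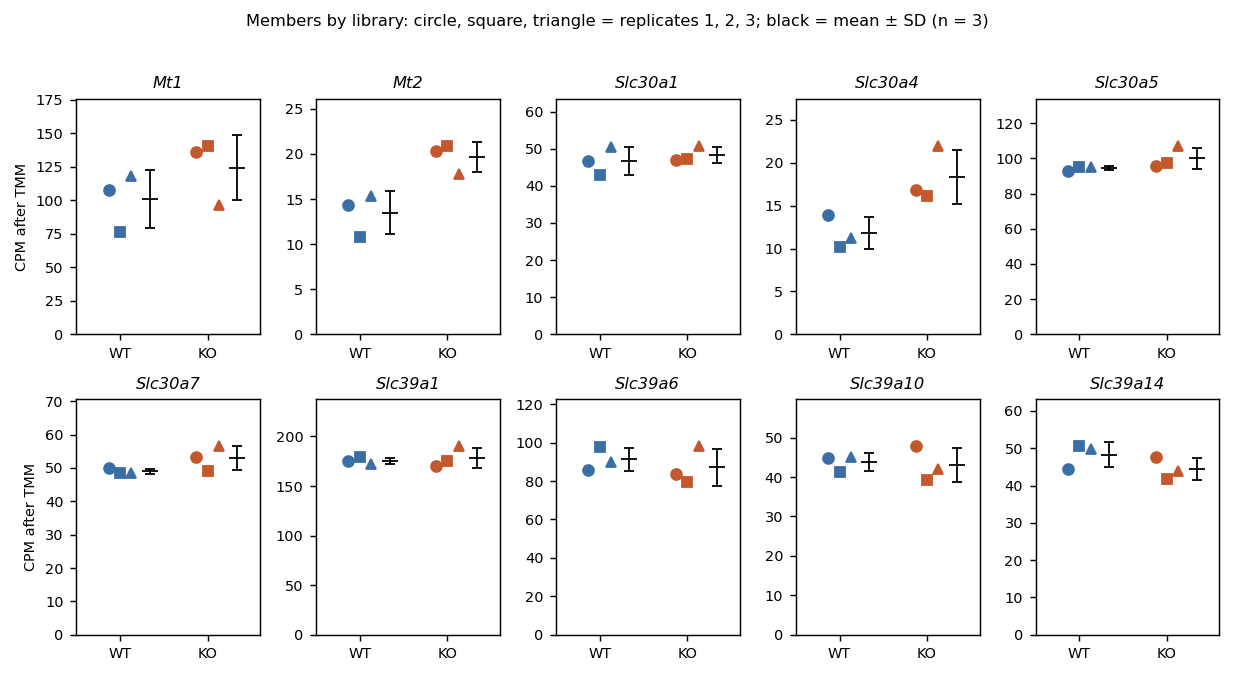
Level of each member in each library in CPM after TMM scaling, with an axis from 0 in each panel, circles, squares and triangles for replicates 1, 2 and 3, and black bars for the mean ± SD (n = 3). *Mt2*, *Slc30a4* and *Slc30a5* have all KO points above all WT points, and *Mt1* overlaps because of KO replicate 3 at 96.3 CPM.

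The fold changes in these libraries followed base composition, which bears on every member. Across 13176 genes with a known transcript, the log2 fold change had a Pearson r of -0.514 with GC content, the percentage of G and C in the transcript. Slopes of this size were also present between some libraries of one genotype. For the log2 ratio of WT replicate 1 over WT replicate 2 it was -0.43, and for KO replicate 1 over KO replicate 3 it was 0.53, while WT replicate 1 over WT replicate 3 (-0.04) and KO replicate 1 over KO replicate 2 (0.10) showed little of it. All are correlations across genes for a single pair of libraries or groups, and genes are not independent replicates.

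The metallothioneins were GC-rich and the ZnT members GC-poor. *Mt1* had 58.1% GC, at the 90.3 percentile of tested genes, and *Mt2* had 55.6%, at the 79.9 percentile. The median log2 fold change of genes within 1 percentage point of GC was -0.30 around *Mt1* and -0.18 around *Mt2*. Both metallothioneins thus had positive estimates where genes of like composition had negative medians. *Slc30a4* had 41.2% GC, at the 9.49 percentile, where the nearby median was 0.26, against its own 0.64. *Slc30a1*, *Slc30a5* and *Slc30a7* lay below the medians of their neighbours in GC, which were 0.12, 0.14 and 0.20.

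**Figure D3:**
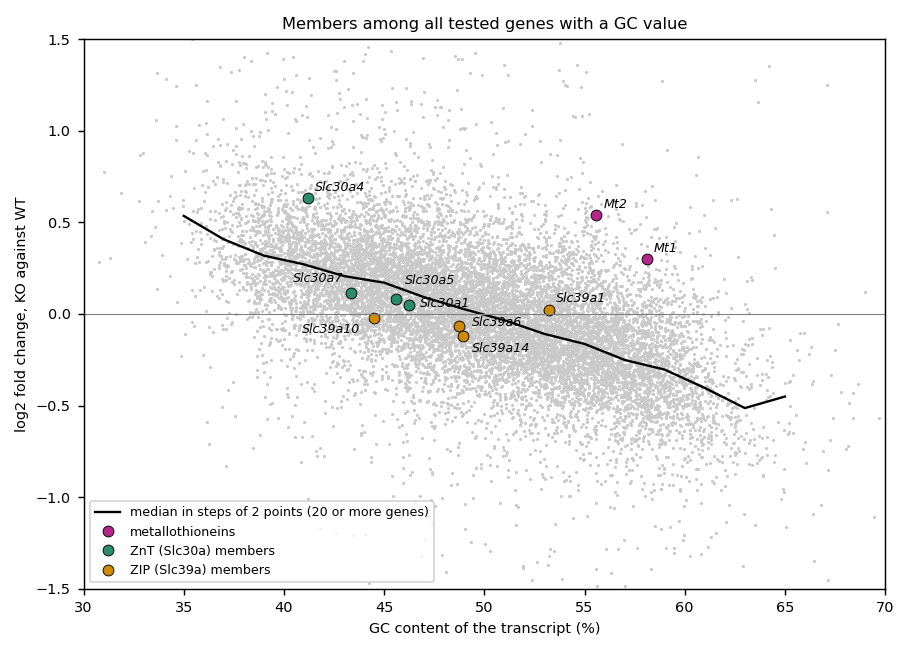
Log2 fold change (KO against WT) against the GC content of the transcript for tested genes, with 13123 of 13176 inside the axes, the members as coloured points and the black line as the median in steps of 2 percentage points. *Mt1* (58.1% GC) and *Mt2* (55.6% GC) lie above the falling line, *Slc30a4* (41.2% GC) lies above it at the GC-poor end, and the other ZnT members and 3 of the 4 ZIP members lie below it.

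A fit with a GC term for each library removed this slope (r = -0.016 afterwards) and moved the members in different directions. For *Mt1* the GC-corrected level was 103, 63.4 and 112 CPM in WT and 134, 143 and 129 CPM in KO, so that the groups no longer overlapped. Its log2 fold change became 0.54 (95% interval 0.15 to 0.94; edgeR unadjusted p = 0.012, adjusted p = 0.103). *Mt2* became 14.1, 9.56 and 14.9 CPM in WT and 20.2, 21.2 and 21.6 CPM in KO. Its log2 fold change became 0.71 (95% interval 0.37 to 1.06; edgeR adjusted p = 0.0549). The separation of *Slc30a4* narrowed, to 14.4, 12.7 and 11.8 CPM in WT and 16.9, 15.9 and 17.2 CPM in KO, with a log2 fold change of 0.37 (95% interval 0.13 to 0.60; edgeR adjusted p = 0.0852).

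After this correction, too, no member passed the limits in edgeR, where 0.0298% of tested genes did. *Mt1*, *Mt2* and *Slc30a4* were the 3 members at an unadjusted p under 0.05, against 26.4% of tested genes, and the 3 whose KO libraries all lay above WT, against 14.7%, while none had all KO libraries below WT, against 17.5%. The estimates were above 0 for 4 members and below 0 for 6, with a median of -0.06. *Slc30a1*, *Slc30a5* and *Slc30a7* turned from above to below 0, at -0.06, -0.05 and -0.09. The ZIP members were at 0.13 (*Slc39a1*), -0.11 (*Slc39a6*), -0.18 (*Slc39a10*) and -0.16 (*Slc39a14*), with edgeR adjusted p from 0.259 to 0.443. The median over these 4 moved from -0.04 to -0.13. In DESeq2 without the correction no member passed, against 0.961% of tested genes. At a looser DESeq2 adjusted p under 0.05 with the same fold limit, *Mt2* (0.045) and *Slc30a4* (0.0292) did. That was 2 of 10 members, against 666 of 13428 tested genes. Under the 18 alternatives *Mt2* was the single member to pass the limits, in a DESeq2 Wald test combined with the GC correction (log2 fold change 0.71, adjusted p = 0.000831), a setting in which 2.54% of tested genes passed.

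**Figure D4:**
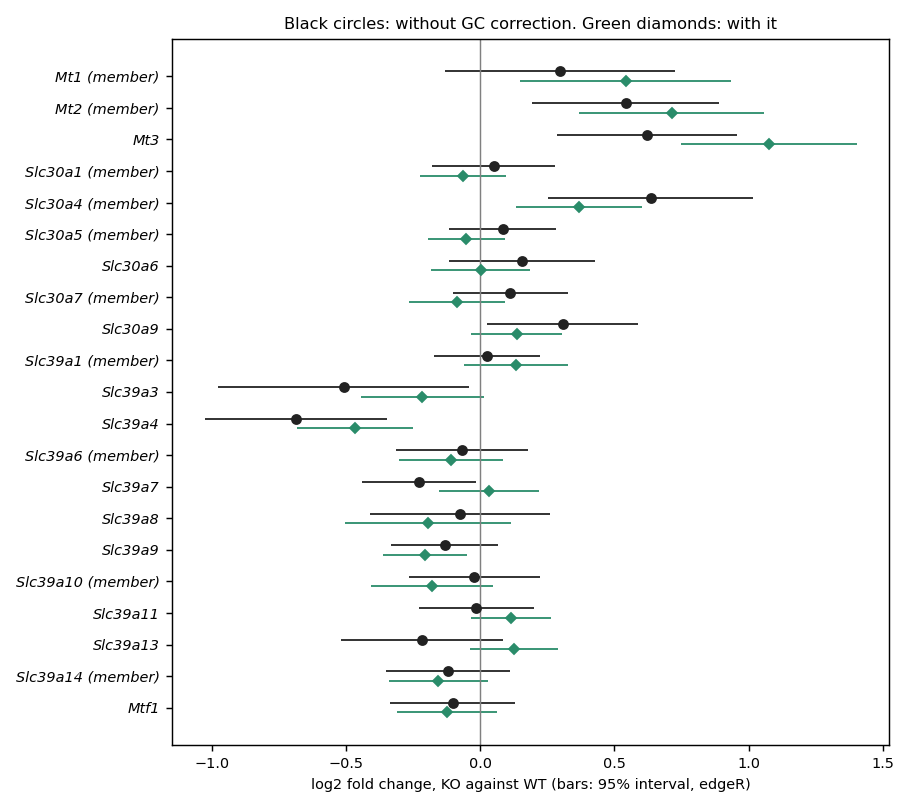
Log2 fold change (KO against WT) with its 95% interval from edgeR for the members and the other tested metallothionein, ZnT and ZIP genes and *Mtf1*, without (black circles) and with (green diamonds) the GC correction. The correction moves *Mt1*, *Mt2* and *Mt3* to the right, to 0.54, 0.71 and 1.08, and *Slc30a4* to the left, to 0.37.

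The other zinc genes were taken from a list of 20, which held the remaining metallothionein, ZnT and ZIP genes, *Mtf1* and *Tmem163*, a zinc transporter of vesicles. Of these, 12 were tested and none passed the limits in edgeR, against the 0.00745% above, while DESeq2 passed 1, *Slc39a4*, where 0.961% of all tested genes passed. At an unadjusted p under 0.05 there were 2 with the higher mean in KO and 3 with the higher mean in WT, of 12 tested, against 13% and 13.2% of all tested genes. The estimates were above 0 for 3 and below 0 for 9, with a median of -0.12 beside 0.01 for all tested genes. With the GC correction described above they were above 0 for 6 and below 0 for 6, with a median of -0.06. *Mtf1* itself was at 29.8 ± 1.3 CPM in WT and 27.8 ± 1.82 CPM in KO (SD, n = 3 each). The estimate was -0.10 on the log2 scale (95% interval -0.34 to 0.13).

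*Mt3*, a metallothionein best known from brain that lies near *Mt2* on chromosome 8, was tested as well, at 11.7 ± 1.12 CPM in WT and 18.0 ± 2.69 CPM in KO (SD, n = 3 each). Its KO libraries were all above WT, with a log2 fold change of 0.62 (edgeR adjusted p = 0.147), which became 1.08 with the GC correction (adjusted p = 0.021). All 3 tested metallothioneins thus had estimates above 0 under each of the 18 alternatives. The size depended on the GC term for all 3, with *Mt2* at 0.54 without it and 0.71 with it. *Mt4* was at 0 counts in all 6 libraries, as were *Slc30a8*, *Slc30a10* and *Slc39a5*. *Slc30a2*, *Slc30a3*, *Slc39a2* and *Slc39a12* had at most 6 counts in any library and were not tested.

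Across the whole ZnT family, 6 of 10 genes were tested and all 6 estimates were above 0, but only 3 of 6 were so after the GC correction and 5 of 6 without WT replicate 2. Besides the members these were *Slc30a6*, the partner of ZnT5 in the secretory pathway (log2 fold change 0.16; 0.003 with the GC correction, 0.10 without WT replicate 2 and 0.09 without KO replicate 3), and *Slc30a9*, which encodes the mitochondrial zinc transporter (0.31; edgeR adjusted p = 0.169; 0.14 with the GC correction and 0.19 without KO replicate 3). The median GC content of the 6 was 44.6%. Across the ZIP family, 11 of 14 genes were tested and 10 estimates were below 0, with 7 of 11 below 0 after the GC correction and 8 of 11 without KO replicate 2. Their median GC content was 53.2%, and their median log2 fold change was -0.12 without and -0.16 with the GC correction.

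*Slc39a4*, the importer whose loss in people causes the zinc deficiency disease acrodermatitis enteropathica, had the lowest estimate of the ZIP genes. It was at 18.5 ± 1.5 CPM in WT and 11.5 ± 1.88 CPM in KO (SD, n = 3 each). The log2 fold change of -0.69 (edgeR adjusted p = 0.147) was -0.47 with the GC correction (adjusted p = 0.0513). *Slc39a3* was at 27.0 ± 3.01 CPM in WT and 19.0 ± 5.44 CPM in KO, a log2 fold change of -0.51 (edgeR adjusted p = 0.171) that was -0.22 with the GC correction and -0.29 without KO replicate 3. *Slc39a7*, which releases zinc from the endoplasmic reticulum, was at 192 ± 12.7 CPM in WT and 164 ± 9.0 CPM in KO. Its log2 fold change of -0.23 (edgeR adjusted p = 0.172) turned to 0.03 with the GC correction.

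The remaining tested ZIP genes were closer to 0 or less certain. *Slc39a8*, an importer of zinc and manganese, had a log2 fold change of -0.08, *Slc39a9* of -0.13, *Slc39a11* of -0.01 and *Slc39a13* of -0.22. With the GC correction these became -0.19, -0.20, 0.11 and 0.13, so that the estimates of *Slc39a11* and *Slc39a13* changed sign. Estimates this small also moved with single libraries. *Slc39a8* ran from -0.16 without KO replicate 1 to 0.01 without KO replicate 2, *Slc39a11* from -0.05 without KO replicate 2 to 0.03 without WT replicate 2, and *Slc39a13* from -0.29 without KO replicate 1 to -0.10 without KO replicate 3. *Tmem163* was near the detection limit, at 0.219 to 0.903 CPM. Summed over all 14 ZIP genes, the level was 758, 830 and 789 CPM in WT and 747, 718 and 723 CPM in KO, with no overlap, and 46.8% of this sum lay in the 4 members. Summed over all 10 ZnT genes it was 266, 254 and 272 CPM in WT and 280, 282 and 321 CPM in KO, also with no overlap. Both sums are from levels without the GC correction, and the part of the GC slope in them was not tested.

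Metallothioneins also bind copper, and 11 of 12 copper handling genes were tested. None passed the limits in edgeR or DESeq2, and 2 of 11 had an unadjusted p under 0.05 in edgeR, not above the 26.2% of all tested genes. There were 7 estimates above 0 and 4 below, with a median of 0.13. The largest absolute estimates were *Atp7a*, a copper exporter (log2 fold change -0.71, edgeR adjusted p = 0.147), *Sco2*, a copper chaperone of cytochrome oxidase (-0.53, adjusted p = 0.293; -0.23 with the GC correction, -0.32 without WT replicate 2, -0.22 without KO replicate 3 and -0.82 without KO replicate 1), and *Cox17*, another such chaperone (0.47, adjusted p = 0.147). With the GC correction *Atp7a* was at -0.85 and *Cox17* at 0.35. *Atp7a* ran from -1.02 without KO replicate 1 to -0.53 without KO replicate 3.

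The 5 tested genes whose log2 levels were most like the mean of *Mt1* and *Mt2* over the 6 libraries were *Mpc2*, a subunit of the mitochondrial pyruvate carrier (Pearson r = 0.991), *Or4x6*, an olfactory receptor gene (0.988), *Atp6v1f*, a subunit of the vacuolar proton pump (0.987), *Cox4i1*, a subunit of cytochrome oxidase (0.986), and *Rpl28*, a ribosomal protein gene (0.985). *Or4x6* was at 0.219 to 0.920 CPM, close to the detection limit. In each of the 5, as in *Mt1* and *Mt2*, WT replicate 2 was the lowest library and KO replicate 2 the highest. With 13426 genes ranked over 6 libraries, likeness of this kind is a description of a shared order of libraries. Among the members, *Slc39a6* ran most opposite to that mean (r = -0.79), and *Slc30a4* and *Slc30a7* ran together (r = 0.88), over the same 6 libraries that share genotype and base composition bias.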

How the data were processed

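Stranded poly(A) libraries of 6 OCP cultures (3 WT, 3 KO) were analysed. The deposited table holds estimated counts per gene, which the authors made from trimmed and aligned reads; the submitters' processing notes name fastp, HISAT2, StringTie and RSEM with build GRCm39, and no versions were given in the sources used here. Columns of group means were not used. Totals were 17757351 to 19998611 counts per library. Counts were rounded, filtered with edgeR's expression filter (13428 of 57180 genes kept), TMM-scaled and tested with edgeR's quasi-likelihood test (edgeR 4.0.16, R 4.3.3), with Benjamini-Hochberg adjustment over all tested genes and limits of adjusted p under 0.01 and fold over 1.3. The p-values measure the spread between 3 cultures per genotype. Intervals use the fit's moderated degrees of freedom. GC content and length came from 1 principal transcript per gene of GENCODE M21 (GRCm38), the GC term was a natural spline with 5 degrees of freedom per library, and positions are in that build, not in the authors' GRCm39. Promoter windows came from RefSeq.

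The alternatives were DESeq2 1.42.0, limma-voom (limma 3.58.1), other scalings and filters, a replicate block, the GC term and leaving out each library. The scripts were tested on simulated data. The genes named were the members, *Ttc39aos1*, the other zinc genes, the 3 copper genes with the largest absolute change, the 5 genes most like the metallothionein mean and the cell type markers; genes that overlap a member in the annotation are named beside it. Markers were singled out after their values were seen. The members and lists were chosen with earlier results of these data known. Amino acid sequences were not used here.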

Additional observations from a re-analysis of the deposited data

How the results depend on the processing

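Of the 18 alternatives, none moved a member past the limits except DESeq2 with the GC correction, where *Mt2* passed (log2 fold change 0.71). The count of genes past the limits was 1 in the main test, 129 with DESeq2, 4 with the GC correction, 341 with both, and 0 to 2 when 1 library was left out (0 without WT replicate 2, WT replicate 3 or KO replicate 2, and 2 without KO replicate 1); the cause of the difference between tools was not tested. Among the other zinc genes 0 passed in the main test and 1 in DESeq2 without (*Slc39a4*) and with (*Mt3*) the GC correction. Estimates changed sign with the GC correction, alone, with the replicate block and with DESeq2, for *Slc30a1* (-0.0643, -0.0630 and -0.0647), *Slc30a5* (-0.0519, -0.0508 and -0.0516) and *Slc30a7* (-0.0851, -0.0850 and -0.0849). When 1 library was left out, *Slc30a1* ran from -0.0095 to 0.11, *Slc39a1* from -0.0231 to 0.0609 and *Slc39a10* from -0.0999 to 0.0389, with a change of sign without WT replicate 2 (-0.0095), without KO replicate 3 (-0.0231) and without WT replicate 3 (0.000295) or KO replicate 2 (0.0389), in that order. The estimate stayed above 0 when 1 library was left out for *Mt1* (0.13 to 0.45), *Mt2* (0.40 to 0.64) and *Slc30a4* (0.48 to 0.77), and below 0 for *Slc39a6* (-0.16 to -0.01) and *Slc39a14* (-0.18 to -0.08). The estimate was 0.03 to 0.12 for *Slc30a5* and 0.06 to 0.16 for *Slc30a7*.

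Same-numbered WT and KO libraries did not deviate together (correlations -0.215, 0.077 and 0.166), and the numbers were not taken as pairs. These correlations used levels without the GC correction and so carry the GC slopes of single libraries. They therefore cannot decide whether same-numbered libraries were prepared together. With the replicate block the adjusted p was 0.0931 for *Mt2* and 0.0844 for *Slc30a4*, and 1 gene passed the limits. At 197 to 391 counts for *Mt2* and 187 to 431 for *Slc30a4*, these were the members with the fewest counts.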
